A study of Mus musculus with 36 samples.

Results

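The 6 mitochondrial tRNA (mt-tRNA) genes mt-Tf, mt-Tv, mt-Tl1, mt-Ti, mt-Tm and mt-Tw were followed through RNA-seq count tables of 6 mouse cell types and tissues. They were chosen by position: of the 22 mt-tRNA genes, these lie on the plus strand of the mitochondrial DNA (mtDNA) and start below base 6000. All 6 were present in each table, among 37 mtDNA genes and 51912 to 55487 genes in all. The animals were wild-type mice labelled C57BL/6, given as C57BL/6N in the study's methods. Males were put at 6 weeks of age on a high-fat diet (HFD, 60% of kcal from fat) or a low-fat diet (LFD, 10% of kcal from fat) for 2 weeks. Cauda spermatozoa, taken from the last part of the epididymis and purified by swim-up, gave 3 HFD and 3 LFD libraries. Morulae, early embryos picked after 72 h of culture, came from in vitro fertilization of unexposed oocytes with sperm of such males, and gave 3 libraries per paternal diet. Round spermatids, the haploid cells of the testis before they elongate, gave 6 libraries from both diets. Liver, epididymal white adipose tissue (eWAT) and gastrocnemius muscle gave 6 libraries each, from chow-fed male offspring of HFD-fed fathers, glucose tolerant (HFDt) or intolerant (HFDi). The columns of the last 4 tables do not tell these subgroups apart, so each table was read as 1 group of 6, and diets were compared in sperm and morulae only. Nothing in the labels says whether libraries came from separate animals, so p-values measure the spread between these libraries. For round spermatids the study's methods give 3 mice per diet. Whether liver, eWAT and gastrocnemius came from the same offspring is not told by the columns, and tests between them used no pairing.

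A mt-tRNA carries 1 amino acid to the ribosome inside the mitochondrion. The mtDNA is copied into long RNAs that hold many genes in a row, and the tRNAs stand between the rRNA and protein genes like punctuation. Enzymes cut at both ends of each tRNA, and this also frees its neighbours, after which CCA is added to the 3′ end. A count on a mt-tRNA gene can therefore come from the free tRNA or from an uncut RNA that runs through it, and the count tables do not separate these forms.

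The DNA-sense gene sequences are shown because the tRNAs are told apart by their anticodon, given in capitals, and because none of them ends in CCA, which leaves the added bases out of the annotated gene. They were read from the GENCODE M21 transcripts of GRCm38.
mt-Tf: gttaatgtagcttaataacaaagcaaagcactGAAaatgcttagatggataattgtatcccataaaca
mt-Tv: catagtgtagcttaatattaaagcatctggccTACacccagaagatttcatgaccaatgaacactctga
mt-Tl1: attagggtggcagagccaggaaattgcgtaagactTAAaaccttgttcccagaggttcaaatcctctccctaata
mt-Ti: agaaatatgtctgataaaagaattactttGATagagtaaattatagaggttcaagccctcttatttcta
mt-Tm: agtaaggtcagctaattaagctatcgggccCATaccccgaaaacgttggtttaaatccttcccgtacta
mt-Tw: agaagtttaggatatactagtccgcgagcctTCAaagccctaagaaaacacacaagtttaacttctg

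The genes are 67 to 75 bases long and share 42.9% to 59.2% of their bases in pairwise alignment. mt-Tf (phenylalanine, MT:1-68) opens the mtDNA and lies 1 base before the small rRNA gene mt-Rnr1. mt-Tv (valine, MT:1025-1093) directly abuts both mt-Rnr1 and the large rRNA gene mt-Rnr2. mt-Tl1 (leucine, MT:2676-2750) directly abuts mt-Rnr2 and mt-Nd1, a gene for a subunit of respiratory complex I. mt-Ti (isoleucine, MT:3706-3774) overlaps mt-Nd1 by 2 bases and mt-Tq, the glutamine tRNA gene of the other strand, by 3. mt-Tm (methionine, MT:3845-3913), whose tRNA also starts every mitochondrial protein, lies 2 bases after mt-Tq and abuts mt-Nd2. mt-Tw (tryptophan, MT:4950-5016) overlaps mt-Nd2 by 2 bases and lies 1 base before mt-Ta, the alanine tRNA gene of the other strand. Its anticodon pairs with UGA, a stop codon in the cytosol that is read as tryptophan in mitochondria. No annotated nuclear transcript held a near-identical copy (at least 99% identity over 90% of the length). The nearest matches were Mir6481 to mt-Tf (82.8% identity) and a stretch of Cep295 to mt-Tl1 (93.5% identity over 82.7% of its length).

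Sperm libraries held 2560219 to 4062321 counts, morula libraries 11471251 to 12153141 and round spermatid libraries 20138842 to 31056066. Liver libraries held 2036237 to 2552454 counts, eWAT libraries 1338149 to 4055537 and gastrocnemius libraries 369772 to 2749920. The mtDNA took 43.5% to 84.3% of the counts in sperm, 22.8% to 26.9% in morulae and 1.96% to 2.38% in round spermatids. Its share was 21.7% to 27% in liver, 15.1% to 18.2% in eWAT and 29.8% to 45.5% in gastrocnemius. Members were therefore read per 1000000 mtDNA counts (mtCPM) as well as per 1000000 counts of the whole library (CPM). Each table expressed the 4 markers fixed for its own cell type, for example Prm1, Prm2, Odf1 and Akap4 in sperm (2635 to 5449 CPM, summed). These sperm markers summed to 6762 to 8820 CPM in round spermatids, so they do not set the 2 tables apart. In sperm with LFD their median (3299) lay below that of epididymal epithelium markers (8519), and with HFD above it (3346 against 2049). Libraries are numbered by rising total within their group. The gastrocnemius library with 369772 counts and the eWAT library 4, in which rRNA took 26.4% of mtDNA counts against 42.3% to 57.8% in the other 5, stood apart from their tables.

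The kits differ in what they can see of a gene this short. Sperm, morula and round spermatid libraries were Nextera libraries read at 75 bases, in pairs except for sperm, and an untrimmed read of 75 bases cannot lie inside 5 of the genes and fits mt-Tl1 at 1 start position. The somatic tissues were QuantSeq libraries, which read 50 bases near the 3′ end of polyadenylated RNA, and such a read fits inside the members at 18 to 26 start positions. How reads that overlap 2 genes were assigned, and whether strand was used, is not given in the sources used here. Tissue and kit cannot be told apart between the first 3 tables and the last 3, so tests between tissues were kept within 1 kit and read layout.

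In morulae the 6 genes together had 1118 ± 215 mtCPM (SD, n = 6 libraries), the highest median of the 6 tables. Gastrocnemius had 755 ± 150, liver 640 ± 47.4 and eWAT 580 ± 132. Sperm had 108 ± 18.1 and round spermatids 72.9 ± 16.9, and the ranges of these 2 tables did not overlap with those of the other 4. Going down this order of medians, each table overlapped in range with the next, except that eWAT (409.6 to 773) and sperm (72.1 to 120) did not.

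**Figure D1:**
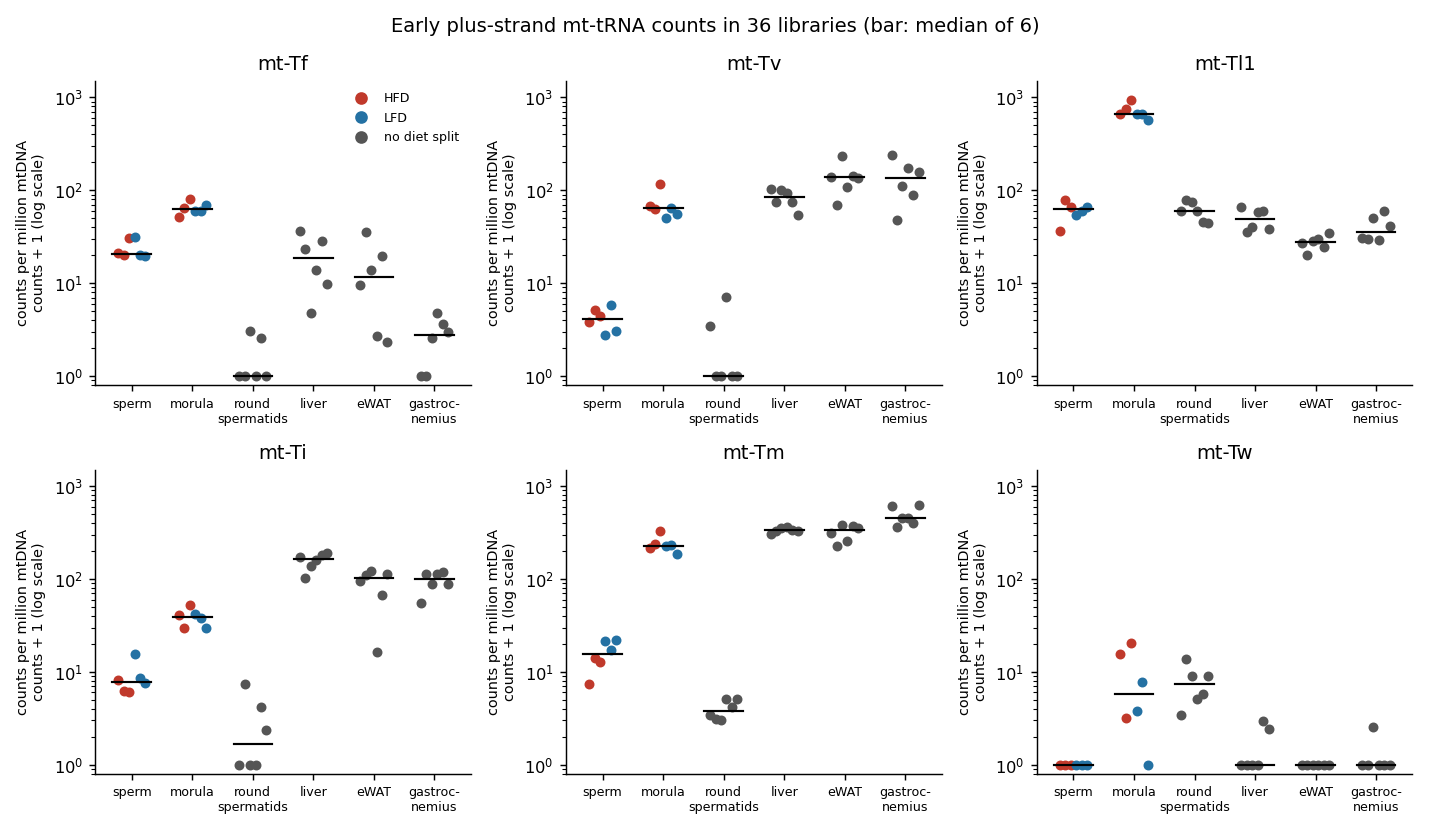
Counts of each of the 6 genes per 1000000 mtDNA counts (mtCPM), plus 1, on a log axis. Every point is 1 of 36 libraries (red HFD, blue LFD, grey not split by diet) and the bars are medians of 6; mt-Tl1 stands at 564 to 933 in morulae and below 79 in the other 5 tables.

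mt-Tl1 led the group in the 3 tables of the Nextera kit and mt-Tm in the 3 tables of the QuantSeq kit, in 6 of 6 libraries each time. Since the genes are of nearly the same length, their shares of the 6-gene sum can be set side by side. mt-Tl1 made up 54.6% ± 7.17 of the sum in sperm, 63.1% ± 1.38 in morulae and 81.3% ± 4.96 in round spermatids (SD, n = 6). In liver, eWAT and gastrocnemius its share was 7.53% ± 1.53, 4.70% ± 1.28 and 5.37% ± 2.16. mt-Tm made up 52.5% ± 4.93 in liver, 55.1% ± 5.69 in eWAT and 63.9% ± 3.66 in gastrocnemius. Its share was 13.5% ± 4.01 in sperm, 21.1% ± 0.599 in morulae and 4.41% ± 2.00 in round spermatids. mt-Tf was the next largest part in sperm (21.7% ± 5.34), and mt-Ti in liver (24.2% ± 4.33). The make-up thus divides the tables by kit, and tissue and kit cannot be told apart here.

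**Figure D2:**
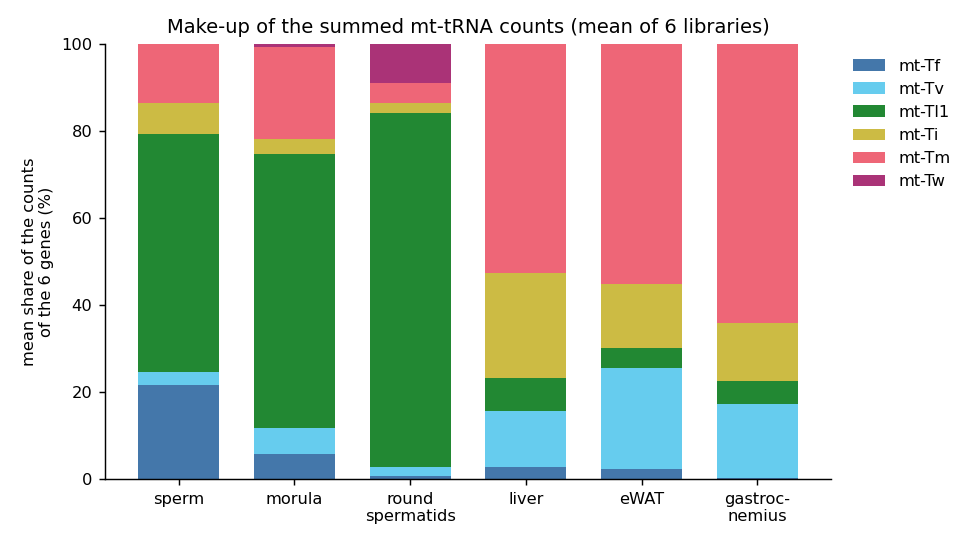
Stacked bars of the mean share of each gene in the summed counts of the 6 genes, in percent, over 6 libraries per table. The green part (mt-Tl1) fills 54.6% to 81.3% of the bar in sperm, morulae and round spermatids, and the pink part (mt-Tm) 52.5% to 63.9% in liver, eWAT and gastrocnemius.

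Against the other 16 mt-tRNA genes the 6 were over-represented in counts in 5 tables. They are 27.3% of the mt-tRNA genes and took a mean of 58.0% of mt-tRNA counts in sperm, 68.4% in morulae, 49.7% in liver, 55.8% in eWAT and 68.2% in gastrocnemius. In round spermatids they took 16.5%, and mt-Tp, the proline tRNA gene of the minus strand, had the highest median of the 22 there (137 mtCPM). mt-Tl1 ranked 1 of the 22 in sperm and morulae and 3 in round spermatids. mt-Tm ranked 1 in liver, eWAT and gastrocnemius. mt-Tw ranked 9 in round spermatids and between 12 and 18 in the other tables. The other 16 genes had medians from 0 to 34.2 mtCPM in sperm and from 0 to 330 in liver. In liver the uppermost of them was mt-Tq, which lies between mt-Ti and mt-Tm.

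mt-Tf was counted 34 to 95 times per library in sperm and 151 to 230 times in morulae, but 0 or 1 time in each round spermatid library. Its median was 61.2 mtCPM in morulae, 19.7 in sperm, 17.5 in liver, 10.7 in eWAT, 1.77 in gastrocnemius and 0 in round spermatids. Morulae lay above sperm without overlap, and each further neighbour in this order overlapped with the next. In liver its count was 2 to 16 per library, in eWAT 1 to 11 and in gastrocnemius 0 to 2. A count of 0 allows up to 3 counts, for counting error only, which is 4.05 to 7.30 mtCPM in a round spermatid library.

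mt-Tv was low in sperm (2 to 12 counts per library) and round spermatids (0 to 3), and was counted 143 to 332 times in morulae. Its medians were 137 mtCPM in eWAT, 133 in gastrocnemius, 83.5 in liver, 62.7 in morulae, 3.12 in sperm and 0 in round spermatids. The first 4 of these overlapped in range from neighbour to neighbour, and morulae lay above sperm without overlap.

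mt-Tl1 was the member counted in each of the 36 libraries at 5 counts or more. Its medians were 665 mtCPM in morulae, 61.7 in sperm, 58.7 in round spermatids, 48.2 in liver, 34.9 in gastrocnemius and 26.6 in eWAT. The morula range (564 to 933) lay above that of sperm (35.7 to 77.04), and the other 5 tables overlapped from neighbour to neighbour.

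mt-Ti was highest in liver, with a median of 165 mtCPM, and stood at 102 in eWAT, 99.3 in gastrocnemius, 38.4 in morulae, 6.86 in sperm and 0.676 in round spermatids. Gastrocnemius and morulae did not overlap, nor did morulae and sperm. The eWAT library 4 held 15.2 against 66.8 to 122 in the other 5 eWAT libraries.

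mt-Tm had medians of 454 mtCPM in gastrocnemius, 334 in eWAT, 333 in liver, 228 in morulae, 14.7 in sperm and 2.80 in round spermatids. Neighbours from gastrocnemius to morulae overlapped, whereas morulae, sperm and round spermatids did not overlap with each other. Its 6 liver values were close together, at 302 to 361.

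mt-Tw was the least counted member. It had 0 counts in each sperm and each eWAT library, at most 1 in liver and gastrocnemius, 1 to 6 in round spermatids and 0 to 56 in morulae. In sperm a count of 0 allows up to 0.946 to 2.70 mtCPM, which lies below the highest morula values (14.7 and 19.4). Within morulae its counts were 44, 7 and 56 for HFD and 8, 21 and 0 for LFD, the widest relative spread of the 6 genes in that table.

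The count per length of the tRNA genes was set beside that of the genes next to them. It was computed for the Nextera tables, as mtCPM per kilobase. An untrimmed read of 75 bases cannot lie inside any member but mt-Tl1, and how reads over 2 genes were assigned is not given. Low values can thus come from read length and counting, and the part of these was not tested. In morulae the median of mt-Tl1 was 8864, which was 18.7% of mt-Nd1 (range over libraries 17.1% to 22.2%) and 3.14% of mt-Rnr2. In sperm it was 6.12% of mt-Nd1, and in round spermatids 3.48%. The ranges of this ratio in sperm (3.51% to 6.94%) and round spermatids (2.83% to 4.28%) overlapped, and neither reached that of morulae. mt-Tm stood at 8.58% of mt-Nd2 in morulae, at 7.35% in sperm and at 0.389% in round spermatids.

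The genes next to the rRNA genes were much lower relative to them. mt-Tf stood at 0.292% of mt-Rnr1 in morulae, at 0.0948% in sperm and at 0 in the median round spermatid library. mt-Tv stood at 0.321% of mt-Rnr2 in morulae and at 0.0114% in sperm. mt-Ti, which overlaps mt-Nd1, stood at 1.15% of it in morulae and at 0.720% in sperm. Counted in this way, each member stood per kilobase at under 23% of the long gene that follows or precedes it, in each library. With untrimmed reads longer than most of these genes, this is not a measure of how much of each tRNA was present.

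**Figure D3:**
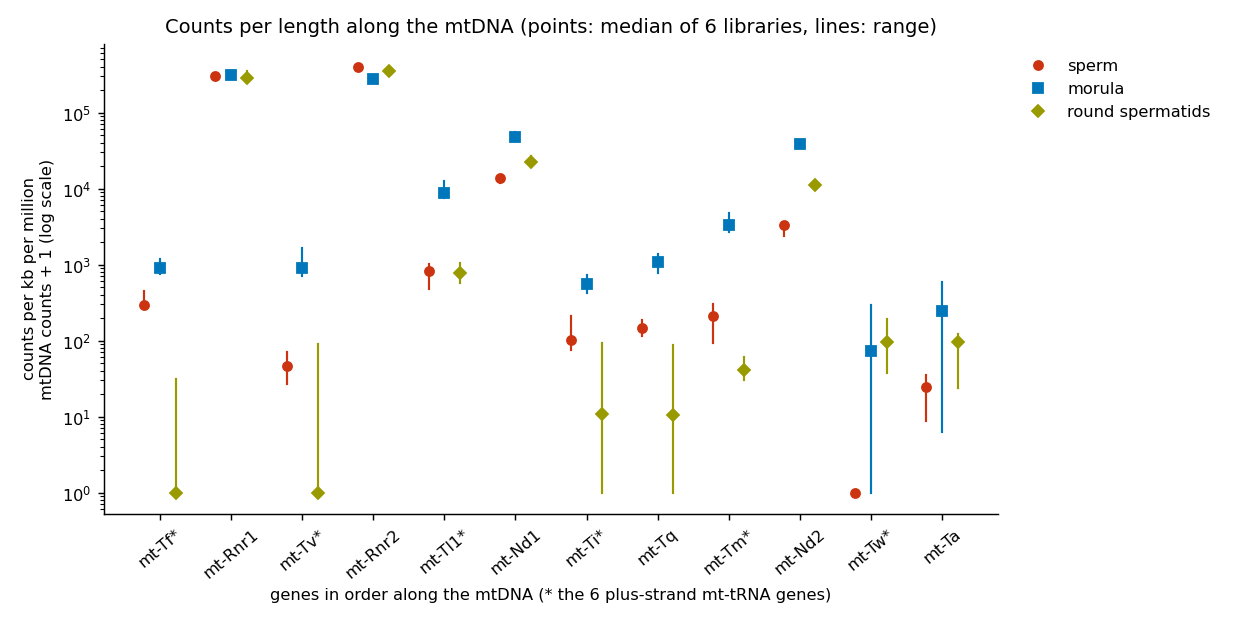
Counts per kilobase per 1000000 mtDNA counts, plus 1, on a log axis, for the genes in order along the mtDNA; points are medians of 6 libraries and lines the ranges in sperm, morulae and round spermatids. The 6 starred tRNA genes lie below the rRNA and complex I genes beside them, and mt-Tl1 and mt-Tm come nearest to their neighbours in morulae (18.7% of mt-Nd1 and 8.58% of mt-Nd2). Untrimmed reads are too long to lie inside any starred gene but mt-Tl1, and the part of this in the low values was not tested.

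Round spermatids and morulae were prepared with 1 kit and read in pairs, and 5 of the 6 members were higher in morulae. mt-Tl1 was 704 ± 125 mtCPM in morulae and 59.4 ± 14.4 in round spermatids, mt-Tm 237 ± 49.3 and 2.98 ± 0.930, and mt-Ti 37.8 ± 8.35 and 1.81 ± 2.55 (SD, n = 6 libraries each). mt-Tf was 63.2 ± 9.87 and 0.603 ± 0.944, and mt-Tv 68.3 ± 23.7 and 1.42 ± 2.49. In these 5 genes the ranges did not overlap, and the exact two-sided permutation p was 0.00216, the smallest that 6 against 6 libraries can give (0.00866 adjusted over 24 tests). From pooled mtCPM the ratio of morulae to round spermatids was 12.3 for mt-Tl1 (95% interval 10.6 to 14.3, counting error only) and 76.8 for mt-Tm (41.7 to 160). For mt-Tf, with 2 counts in all round spermatid libraries together, it was 102 (28.2 to 843). mt-Tw was 7.63 ± 7.75 in morulae and 6.70 ± 3.72 in round spermatids (exact p = 0.797, adjusted 0.869). In CPM it was 1.91 ± 1.88 in morulae and 0.146 ± 0.0854 in round spermatids and passed (adjusted exact permutation p = 0.0242). On that scale 6 of 6 members were called higher in morulae. CPM includes the mtDNA share, which was 22.8% to 26.9% in morulae and 1.96% to 2.38% in round spermatids. The share of all genes called on that scale was not computed. The round spermatid libraries are described as Ribo-minus, and the part of this step in the difference was not tested. As bulk samples, fewer mitochondria or cells with a given RNA and less of that RNA in each cannot be told apart.

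Among the QuantSeq tissues, mt-Ti was higher in liver than in the other tissues, mt-Tm was higher in gastrocnemius, and mt-Tf was lower in gastrocnemius than in liver. mt-Ti was 155 ± 32.1 mtCPM in liver, 86.8 ± 40.1 in eWAT and 94.9 ± 24.4 in gastrocnemius (SD, n = 6). Liver was 1.79 times eWAT and 1.64 times gastrocnemius (adjusted exact permutation p = 0.0189 in both), while eWAT and gastrocnemius did not pass (adjusted 0.831). In CPM, the difference of liver and gastrocnemius was no longer past the threshold (adjusted exact permutation p = 0.597), while gastrocnemius (34.7) lay above eWAT (14.5) without overlap (adjusted exact permutation p = 0.00433). mt-Tm was 485 ± 112 in gastrocnemius, 335 ± 21.5 in liver and 317 ± 64.5 in eWAT. Gastrocnemius was 1.45 times liver (adjusted exact permutation p = 0.0130) and 1.53 times eWAT (0.0173), and liver and eWAT did not pass (0.662). In CPM liver (81.1) lay above eWAT (53.1) without overlap (adjusted exact permutation p = 0.00433). Both calls on mt-Tm were lost when the counts of mtDNA protein genes were the denominator (adjusted exact p = 0.702 and 0.591). rRNA took 24.04% to 37.4% of mtDNA counts in gastrocnemius, 40.4% to 59.7% in liver and 26.4% to 57.8% in eWAT.

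mt-Tl1 was 48.7 ± 12.9 in liver and 26.3 ± 5.02 in eWAT, without overlap (1.85 times, adjusted exact p = 0.00866), and 39.0 ± 12.5 in gastrocnemius. Gastrocnemius did not pass against liver (adjusted exact permutation p = 0.325) or eWAT (0.0668). In CPM it lay above eWAT without overlap, at 14.4 against 4.44 (adjusted exact permutation p = 0.00433). With mtDNA protein genes as the denominator liver lay above gastrocnemius without overlap (1.68 times, adjusted exact permutation p = 0.00519). mt-Tf was 18.4 ± 12.1 in liver and 1.64 ± 1.46 in gastrocnemius (adjusted exact p = 0.0130). From 57 and 7 pooled counts, this ratio was 8.75 with an interval of 3.98 to 22.7, for counting error only. In eWAT mt-Tf was 12.8 ± 12.3 and did not pass against liver (adjusted exact permutation p = 0.606) or gastrocnemius (0.0639). mt-Tv was 82.8 ± 18.9 in liver, 137 ± 54.7 in eWAT and 135 ± 67.9 in gastrocnemius, and none of its 3 comparisons passed in mtCPM (adjusted exact permutation p from 0.0519 to 1). In CPM gastrocnemius (51.0) was higher than liver (19.8, adjusted exact permutation p = 0.0186) and eWAT (23.03, 0.0422). mt-Tw gave no call between these tissues. Of the 24 tests between tissues in mtCPM, 11 passed an adjusted p of 0.05. These were 5 of 6 for round spermatids against morulae and 2 of 6 for liver against eWAT. Liver against gastrocnemius gave 3 of 6, and eWAT against gastrocnemius 1 of 6. Only the 6 members were tested between tissues, so the share of all genes that would pass is not known. Without the eWAT library 4, mt-Tv was called between liver and eWAT (adjusted exact permutation p = 0.0360) and mt-Tf between eWAT and gastrocnemius (0.0260). Markers of other cells were also counted in these tissues. Erythroid markers (2 genes) summed to 3455 to 11440 CPM in eWAT, against 237 to 389 in liver and 329 to 495 in gastrocnemius. Leukocyte markers (3 genes) summed to 553 to 1130 in eWAT, against 23.5 to 70.2 in liver and 30.2 to 48.7 in gastrocnemius. Their part in the member levels was not tested.

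In sperm, the question was whether 2 weeks of HFD moved the 6 tRNA counts, and the answer turned on what they were scaled to. mt-Tf was 17.03, 15.2 and 23.4 CPM in the HFD libraries and 13.3, 12.01 and 12.1 CPM in the LFD libraries. The HFD values were higher in 3 of 3, without overlap (exact permutation p = 0.1, the smallest that 3 against 3 can give). mt-Tl1 was 30.1, 60.9 and 51.0 with HFD and 23.04, 37.1 and 42.0 with LFD, and the groups overlapped. mt-Ti was 6.01, 4.08 and 3.94 with HFD and 6.25, 4.81 and 4.26 with LFD, also with overlap. mt-Tm was 5.34, 10.3 and 9.11 with HFD and 8.98, 10.3 and 13.4 with LFD, and mt-Tv 2.34, 3.26 and 2.71 with HFD and 0.781, 3.09 and 1.31 with LFD. Of the 6 members, mt-Tf was the one whose diets did not overlap on this scale. Over the 8643 genes tested, 48 (0.555%) were higher with HFD without overlap, and 10 of these 48 lie on the mtDNA. Only 18 mtDNA genes were tested, so 10 of 18 shared this with mt-Tf included.

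Relative to the mtDNA the picture differed. mt-Tf was 20.2, 19.3 and 29.9 mtCPM with HFD and 30.5, 19.0 and 18.8 with LFD, and mt-Tl1 was 35.7, 77.04 and 65.2 with HFD and 53.0, 58.5 and 64.9 with LFD, so both overlapped. mt-Tm was 6.34, 13.1 and 11.7 with HFD and 20.7, 16.2 and 20.8 with LFD, lower with HFD in 3 of 3 without overlap (exact p = 0.1). On this scale 66.9% of all genes tested were lower with HFD without overlap. Nearly all of these genes are nuclear, and division by mtDNA counts lowers them where the mtDNA share is higher. This background therefore does not apply to genes of the mtDNA. In the edgeR fit below with mtDNA totals, mt-Rnr1, mt-Rnr2 and mt-Nd1 stood at log2 fold changes of 0.10, -0.06 and 0.13. mt-Nd2 and mt-Tq stood at 0.26 and -0.02, and mt-Tm at -0.89 ± 0.99 (SE). Of the other members tested, mt-Ti stood at -0.70 ± 1.11, mt-Tf at 0.03 and mt-Tl1 at 0.01. The share of mtDNA genes lower without overlap was not computed on this scale. The 6 members summed to 72.1, 119 and 115 mtCPM with HFD and 120, 106 and 113 with LFD. This is 102 ± 25.96 against 113 ± 7.12 (SD, n = 3 per diet), a difference of -11.2 (exact two-sided permutation p = 0.8). Without the HFD library 1 the difference was 3.80. In CPM the sum was 81.5 ± 18.1 with HFD and 64.2 ± 10.7 with LFD (exact permutation p = 0.3).

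The share of the mtDNA itself lies between these scales. It was 78.1% to 84.3% of all counts in the HFD libraries and 43.5% to 64.7% in the LFD libraries. Markers of the epididymal epithelium (Lcn5, Crisp1, Crisp4 and Adam7), which swim-up and a lysis step are meant to remove, were also apart: they summed to 1628 to 2879 CPM with HFD, where Crisp4 was at 0, and to 3013 to 24981 with LFD. Round spermatid markers (4 genes) summed to 19.0 to 46.5 with HFD and 27.3 to 71.1 with LFD, leukocyte markers to 21.5 to 42.3 and 30.2 to 38.1, and erythroid markers to 93.5 to 172 and 18.7 to 134. The part of these cells and of the mtDNA share in the sperm differences was not tested.

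**Figure D4:**
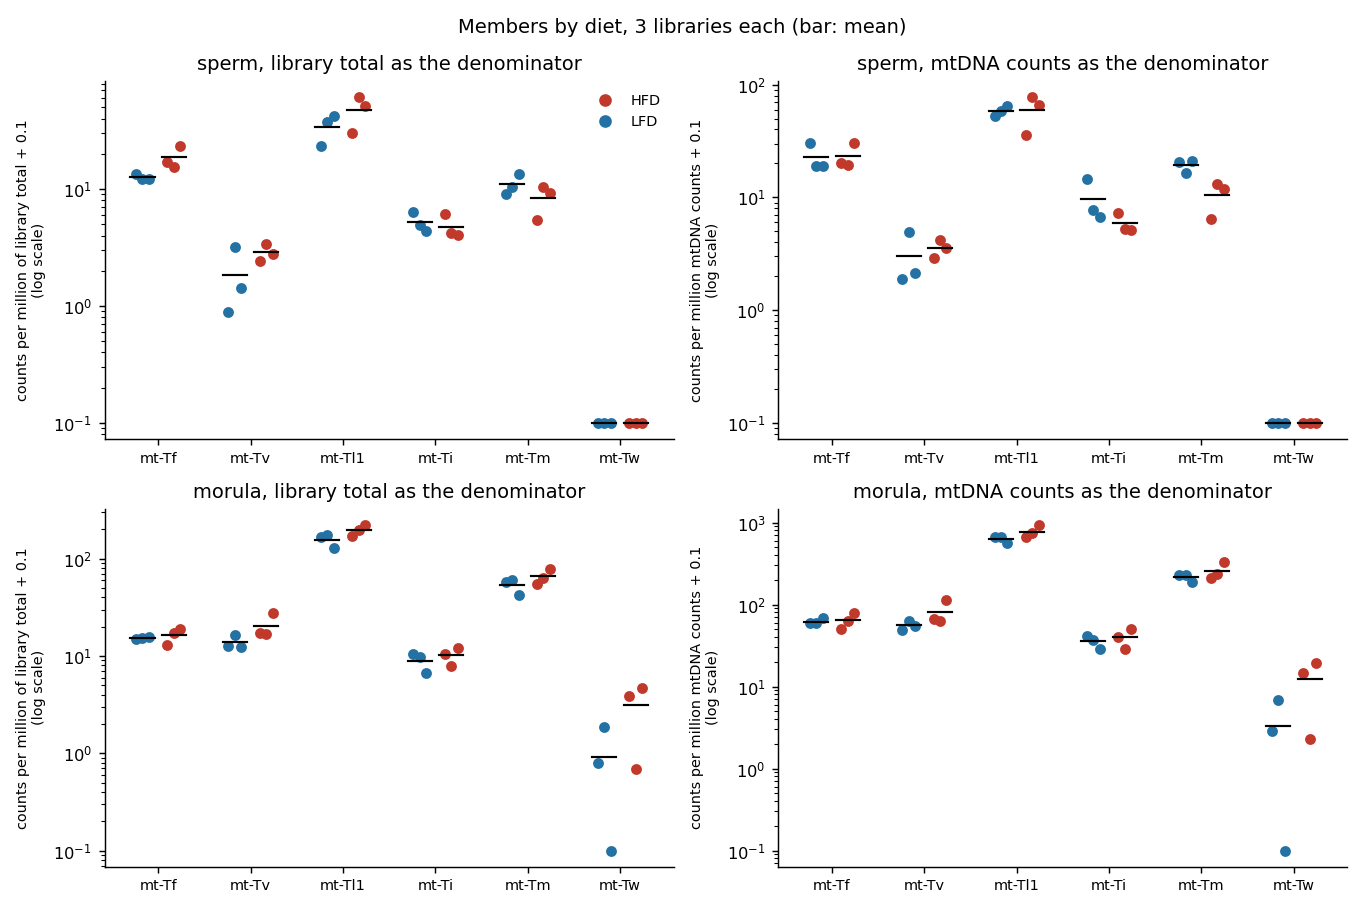
Counts of the 6 genes by diet in sperm (top) and morulae (bottom), plus 0.1 on a log axis, in CPM (left) and in mtCPM (right). Points are libraries (3 per diet) and bars are means. In sperm mt-Tf lies higher with HFD without overlap on the left only, and mt-Tm lower with HFD without overlap on the right only.

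A fit across all genes used one more scale, as TMM (trimmed mean of M-values) sets the libraries by the bulk of genes. With edgeR's quasi-likelihood test and Benjamini-Hochberg adjustment, 0 of 8643 genes (0%) passed an adjusted p of 0.05 in sperm, with 1122 at an unadjusted p under 0.05. DESeq2, with its own filter, called 221 of 10724 genes (2.06%). mt-Tv and mt-Tw were not tested by edgeR, as their counts were too low for the filter. The other 4 members all had a log2 fold change above 0 for HFD over LFD. By edgeR it was 2.26 ± 0.54 (SE) for mt-Tf (adjusted p = 0.232) and 2.15 ± 0.56 for mt-Tl1 (adjusted p = 0.232). For mt-Ti it was 1.64 ± 0.80 (adjusted p = 0.409) and for mt-Tm 1.29 ± 0.68 (adjusted p = 0.450). DESeq2 called mt-Tf (adjusted p = 0.0104) and mt-Tl1 (adjusted p = 0.0235) among the 5 members it tested, and not mt-Tv (2.36 ± 1.14, DESeq2 adjusted p = 0.296), mt-Ti or mt-Tm. On the TMM scale mt-Tf was 32.7 to 34.4 CPM with HFD and 5.15 to 7.91 with LFD, and mt-Tl1 58.1 to 138 and 8.93 to 26.9. The diets did not overlap in 4 of 4 tested members, against 8.12% of all genes tested, and 2 of 4 were at an unadjusted p under 0.05 and higher with HFD, against 8.33%. Of the 18 mtDNA genes tested, the members included, the diets did not overlap in 17, and 13 were at an unadjusted p under 0.05.

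The median log2 fold change of the 4 members was 1.90, beside -0.07 over all genes tested and 2.15 over the 18 mtDNA genes. The other mt-tRNA genes tested (4 of 16) had a median of 2.14. With library totals in place of TMM the median of all genes moved to -1.82, and with mtDNA totals to -2.42. The members then had log2 fold changes of 0.57 (mt-Tf), 0.47 (mt-Tl1), -0.13 (mt-Ti) and -0.40 (mt-Tm) with library totals, and 0.03, 0.01, -0.70 and -0.89 with mtDNA totals. Relative to the median of all genes, mt-Tf stood 2.33, 2.39 and 2.45 higher on the log2 scale under these 3 scalings and mt-Tm 1.37, 1.42 and 1.53. A change of scaling shifts all genes by nearly the same amount, so these distances are nearly fixed by construction and the sign changes of mt-Ti and mt-Tm follow the common shift.

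**Figure D5:**
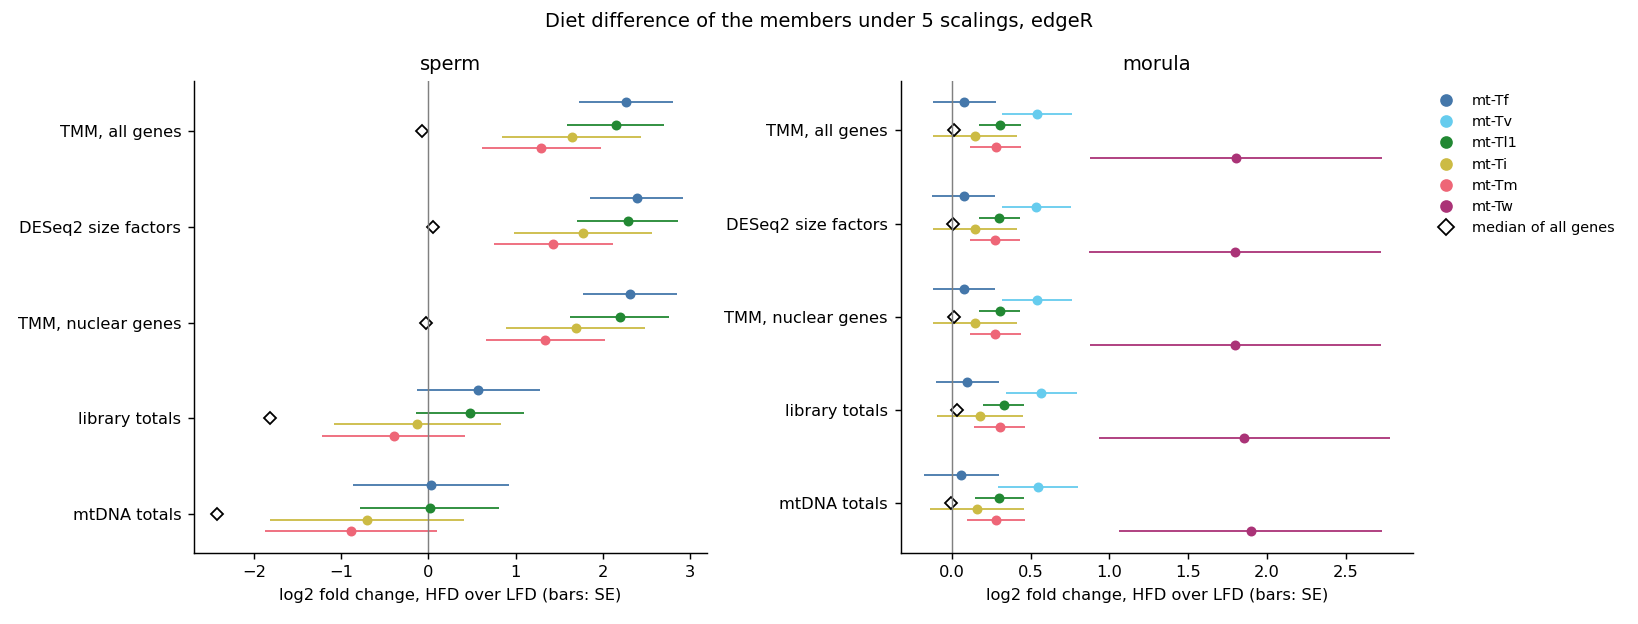
Log2 fold change for HFD over LFD of each gene in sperm (left) and morulae (right) under 5 scalings, from edgeR; bars are SE and open diamonds the median of all genes tested. In sperm the members move from 1.29 to 2.26 under TMM to between -0.89 and 0.03 under mtDNA totals while the diamond moves from -0.07 to -2.42, and in morulae both stay nearly in place.

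In morulae the paternal diet comparison rests on deeper counts, and the scalings moved the folds less. The mtDNA took 23.8% to 26.9% of counts with HFD and 22.8% to 26.1% with LFD. mt-Tl1 was 659, 740 and 933 mtCPM with HFD and 660, 670 and 564 with LFD, and mt-Tm 212, 237 and 331 with HFD and 227, 229 and 186 with LFD. For both, HFD library 3 was the highest and LFD library 3 the lowest, and the groups overlapped. mt-Tv was 66.2, 62.5 and 115 with HFD and 49.1, 62.9 and 54.3 with LFD, with overlap. In CPM its HFD values (17.1, 16.8 and 27.3) lay above its LFD values (12.47, 16.4 and 12.4) without overlap (exact permutation p = 0.1), as did 6.60% of all genes tested. mt-Tf was 50.5, 63.4 and 79.5 mtCPM with HFD and 59.0, 58.7 and 67.7 with LFD, and mt-Ti 40.1, 28.7 and 50.8 with HFD and 41.2, 36.8 and 29.0 with LFD. mt-Tw was 14.7, 2.21 and 19.4 with HFD and 2.75, 6.77 and 0 with LFD.

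The 6 members summed to 1043, 1134 and 1528 mtCPM with HFD and to 1039, 1064 and 901 with LFD. The means were 1235 ± 258 and 1001 ± 87.8 (SD, n = 3 per diet), which differ by 234 (exact two-sided permutation p = 0.2, with 0.1 the smallest possible). Without HFD library 3 the difference was 87.2. The sum was 1.26 times as high with HFD in CPM (exact permutation p = 0.2).

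In the edgeR fit 0 of 13447 genes (0%) passed an adjusted p of 0.05 in morulae, with 858 at an unadjusted p under 0.05. DESeq2 called 8 of 13036 genes (0.0614%), no member among them. All 6 members were tested and had a log2 fold change above 0 under TMM. By edgeR, mt-Tv stood at 0.54 ± 0.22 (SE, adjusted p = 0.729) and mt-Tl1 at 0.31 ± 0.13 (adjusted p = 0.742). mt-Tm stood at 0.28 ± 0.16 (adjusted p = 0.818), mt-Ti at 0.15 ± 0.27 (0.958), mt-Tf at 0.08 ± 0.20 (0.971) and mt-Tw at 1.80 ± 0.93 (0.792). At an unadjusted p under 0.05 and higher with HFD were 2 of 6 members, against 3.55% of all genes tested, and 4 of the 33 mtDNA genes tested, while 3 of the 33 were lower with HFD. Without HFD library 3, mt-Tv stood at 0.30 and mt-Tf at -0.02 on the log2 scale. mt-Tw stood at 3.03 without LFD library 2 and at 1.21 without LFD library 3. TMM-scaled values overlapped between the diets in 6 of 6 members, while they did not overlap, higher with HFD, in 5.94% of all genes. The median log2 fold change was 0.29 over the members, 0.83 over the other 12 mt-tRNA genes tested and 0.01 over all genes.

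The diet difference of the 6-gene sum was also set side by side for sperm and morulae, although sperm were not read in pairs. The diets were rearranged within both tables, so p refers to no diet difference in either. It does not test whether the difference is the same in both. On the log2 scale and from mtCPM it was -0.18 in sperm and 0.29 in morulae, 0.47 higher in morulae (exact permutation p = 0.17 over 400 arrangements of the diets within both tables). With mtDNA protein gene counts as the denominator the difference was again 0.47 (exact permutation p = 0.05), and from CPM it was -0.0027 (exact p = 0.985).

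The genes that load, cut and modify these tRNAs were read as a list. The synthetases that load them are Fars2, Vars2, Lars2, Iars2, Mars2 and Wars2. The processing and modification genes were 15, of which 14 were in the tables, among them Elac2 and Trmt10c for the cuts at both ends, Trnt1 for the added CCA, and Nsun3 and Alkbh1 for the modified anticodon base of mt-Tm. In sperm 4 of the 6 synthetases and 7 of the 15 processing genes were tested, and none passed the adjusted threshold in either direction. Lars2, the leucine synthetase, had the largest log2 fold change of its list at 1.94 ± 0.72 (edgeR adjusted p = 0.285) and Iars2 the smallest at -0.74 ± 0.71. Lars2 was counted at a median of 2821 CPM in sperm and 2456 in morulae, where the median synthetase stood at 6.68 and 26.1. In round spermatids the highest synthetase was Mars2 at 184 CPM, and in liver, eWAT and gastrocnemius Iars2 at 47.2, 61.8 and 49.8. With library totals and mtDNA totals, Lars2 in sperm stood at log2 fold changes of 0.24 ± 0.50 and -0.23 ± 0.40. The medians of all genes were then -1.82 and -2.42. Whether the counts on Lars2 come from its mRNA was not tested. In the processing list Mto1 was the largest at 0.40 ± 1.06 and Nsun3 the smallest at -1.90 ± 0.74 (edgeR adjusted p = 0.299 for the latter). In morulae 6 of 6 synthetases and 14 of 15 processing genes were tested, again with none past the threshold. Vars2 (0.49 ± 0.34) and Lars2 (-0.19 ± 0.09) were the largest and smallest of the synthetases, and Trmu (0.52 ± 0.34) and Hsd17b10 (-0.30 ± 0.29) of the processing genes. The median log2 fold changes of the 2 lists were 0.11 and -0.64 in sperm and 0.06 and 0.015 in morulae, beside -0.07 and 0.01 over all genes tested.

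Among the neighbours on the mtDNA, mt-Nd2 in sperm had a log2 fold change of 2.43 ± 0.64 under TMM (edgeR adjusted p = 0.232) and mt-Rnr2 one of 2.11 ± 1.23 (adjusted p = 0.504). With mtDNA totals they stood at 0.26 and -0.06. In morulae mt-Nd1 and mt-Nd2 stood at 0.11 ± 0.09 and 0.03 ± 0.10 and mt-Ta at 1.10 ± 0.82, none of them past the threshold.

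Across all 36 libraries, log2(CPM + 1) of mt-Ti, mt-Tm and mt-Tv was most alike that of mt-Nd2, with Pearson r of 0.96, 0.97 and 0.93. These are descriptions over libraries that differ in tissue, kit and depth, among 14505 genes. After mt-Nd2 came mt-Tq and mt-Nd1 for mt-Ti, mt-Nd1 and Pdha1 for mt-Tm, and Pdha1 and Acadl for mt-Tv. mt-Tl1 was most alike mt-Nd5 (r = 0.92), followed by Adi1 and Ptpn3, and mt-Tw most alike mt-Ty (r = 0.85), followed by Gm44172 and C87977. mt-Tf was most alike 1810019D21Rik (r = 0.86), Adi1 and Cmtm4. Within the group, mt-Tm and mt-Tv were most alike (r = 0.96), mt-Tf and mt-Tl1 had r = 0.81, and mt-Tf and mt-Tv r = 0.06.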

How the data were processed

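The deposited values are raw counts per gene, which the authors obtained with BBDuk for trimming, STAR for mapping (GRCm38) and featureCounts. No further scaling had been applied to them. Symbols were matched by Ensembl identifier, and mtDNA genes were identified by the file's chromosome column. Libraries took their group from the letters of the column names and are numbered by total count, since those names do not match the sample titles. The description of 3 morula samples contradicts their titles on the diet, and the titles were followed. The members and gene lists were chosen with earlier results of these data known.

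Each diet comparison used the quasi-likelihood test of edgeR 4.0.16 under R 4.3.3 on its own table, two-sided, after TMM scaling and removal of genes below filterByExpr's minimum count of 10. Adjusted p (Benjamini-Hochberg) had a threshold of 0.05, and DESeq2 1.42.0 was an alternative. The paper's methods name NOISeq, which was not used here. SE is the log2 fold change divided by the root of the F statistic. Single values were compared by exact two-sided permutation tests. Near-identical copies were searched with BLAST 2.17.0. Named genes are the 6 members, their neighbours, the extremes of the fixed lists and the 3 genes most alike each member among genes with a mean of at least 10 CPM in 1 table. mt-Nd5 and mt-Ty entered by that likeness, and mt-Tp by being the highest mt-tRNA gene of a table. The test of the sum between sperm and morulae and the tests without single tissue libraries were added after the data were seen. No 2 libraries of a group were alike within sampling noise (chi-square per degree of freedom of 3.50 or more). Count intervals and limits for a count of 0 cover counting error only. The tests were also run on simulated counts.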

Additional observations from a re-analysis of the deposited data

Results flagged for a closer look

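mt-Tw in gastrocnemius is listed because 1 library lies far from the other 5. Gastrocnemius library 3 had 1.58 mt-Tw counts per 1000000 mtDNA counts, which is 1 count, and the other 5 libraries had 0. A count of 0 allows up to 3 counts, so this gap is within counting error. It was the 1 case of this kind in 27 sets of 6 libraries (members and their sum in round spermatids, liver, eWAT and gastrocnemius). Chance gives about 1 in 20 such sets for continuous values. A set with counts in 1 library and 0 in the other 5 is always listed, so that rate does not apply here.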

How the results depend on the processing

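The number of genes called in sperm was 0 and became 3266 with library totals, 41 with no filter on low counts and 221 with DESeq2. With library totals 3265 of these were lower with HFD, whereas 38 of the 41 and 207 of the 221 were higher. With mtDNA totals 4980 genes were called, all lower with HFD. The number called stayed at 0 with DESeq2 size factors, with TMM factors from nuclear genes and without each library in turn (0 to 0). With the number in the sperm column names as a replicate block it was 2, where mt-Tl1 stood at 2.59 on the log2 scale and mt-Tf at 2.39 (edgeR adjusted p = 0.636 for mt-Tf), neither past the threshold. The libraries are not known to be paired: only 2 numbers occur in both diets, same-numbered libraries had deviations correlated at 0.10 and -0.14, and in morulae no paired fit could be made because the diets share no number. The number called in morulae was 0 and became 63 with no filter and 8 with DESeq2, and leaving out each library gave 0 to 2, the 2 without HFD library 2. For mt-Ti and mt-Tm in sperm the log2 fold change turned to -0.13 and -0.40 with library totals and to -0.70 and -0.89 with mtDNA totals. Leaving out each library moved mt-Tf in morulae between -0.0162 (without HFD library 3) and 0.2246, and mt-Ti between -0.0412 (without LFD library 3) and 0.2844.

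The sperm difference of the summed members, -11.2 mtCPM, turned to 17.3 CPM, and to 0.385, 0.556 and 0.518 for mt-Tf, mt-Tv and mt-Tl1 alone. Leaving out each library gave -19.5 to 3.80, and in morulae 87.2 to 330.0. The 11 calls between tissues became 10 to 16 under the other denominators, the log2 scale and without eWAT library 4 or gastrocnemius library 1. In single pairs of tissues the sign turned 6 times: for mt-Tl1 between liver and gastrocnemius (-2.78 CPM), for mt-Tv between eWAT and gastrocnemius (-28.0 CPM), for mt-Ti between eWAT and gastrocnemius (37.9 with mtDNA protein genes as the denominator, and 6.24 without eWAT library 4 against -16.39 without gastrocnemius library 1), and for mt-Tw between round spermatids and morulae (12.4 with mtDNA protein genes as the denominator, 0.32 on the log2 scale). Of these, mt-Tv passed the threshold (adjusted exact permutation p = 0.0422). The cause was not tested. Counts of 0 to 3 in round spermatids, and of 0 to 12 for mt-Tv and mt-Tw in sperm, limit what can be read there.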
